A study of Mus musculus with 8 samples.

Results

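The loci of 4 Wnt ligand genes, Wnt7b, Wnt8b, Wnt7a and Wnt5a, were examined for OTX2 binding in the embryonic mouse ventral forebrain. Peaks were taken from all 8 deposited lists when their centre lay within 200 kb of a gene position in genome build mm9: 85390000 on chromosome 15 for Wnt7b, 44568000 on chromosome 19 for Wnt8b, 91340000 on chromosome 6 for Wnt7a and 29325000 on chromosome 14 for Wnt5a. These 4 windows of 400 kb held 36 of the 26317 peaks of the series. The genes had been chosen with the peaks known, the Wnt7b window because it holds one of the best-ranked regions. Counts, positions, widths and ranks are therefore a description, and no test was made of them.

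All libraries were made from CD-1 mouse embryos of wild-type genotype at stage E12.5. The tissue was dissected septum and basal ganglia (medial and lateral ganglionic eminences), and each sample pooled several embryos. Chromatin was precipitated with an antibody against the homeodomain factor OTX2 (3 libraries) or with normal goat IgG (2 libraries), or was sequenced as input without antibody (3 libraries). The OTX2 lists held 1848, 1298 and 22325 peaks in replicates 1, 2 and 3, and the control lists held 149 and 182 (IgG replicates 1 and 2) and 138, 142 and 235 (input replicates 1, 2 and 3). The track names of the replicate 3 lists (OTX2 and input) carry a score tag that those of the other 6 lack. The sources used here do not explain this tag. They also do not say whether 1 set of calling parameters served all 8 lists. Region counts and their background are given with and without OTX2 replicate 3, whereas region spans are those of its wider peaks. Read depth is unknown. Peak lists hold no expression values, so the tissue label could not be checked against marker genes, and whether the 4 genes were expressed in the dissected cells is not shown by these data.

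Wnt proteins are secreted, lipid-modified signals. At the receiving cell they bind Frizzled receptors, and the canonical branch also uses the co-receptors Lrp5 and Lrp6 to stabilise beta-catenin, which then acts with Tcf and Lef factors on target genes. Wnt7a and Wnt7b signal through beta-catenin in neural tissue and to brain endothelium, where Reck and Adgra2 serve as their co-receptors. Wnt8b is known from the cortical hem and the medial wall of the telencephalon. Wnt5a signals largely without beta-catenin, through Ror and Ryk receptors, and acts on cell polarity and axon growth. OTX2 is a patterning factor of the forebrain and midbrain whose preferred DNA core is TAATCC.

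The OTX2 antibody gave peaks in all 4 windows and the controls gave none. The Wnt7b window held 3, 2 and 8 peaks in OTX2 replicates 1, 2 and 3. The Wnt8b window held 1, 1 and 3, the Wnt7a window 1, 1 and 8, and the Wnt5a window 0, 1 and 7. None of the 3 input and 2 IgG lists had a peak in any of the 4 windows. Replicate 3, which held 26 of the 36 window peaks, had an input list and no IgG list. A control peak was uncommon anywhere: of all 6586 windows of 400 kb laid end to end along the chromosomes, 7.49% held one. The nearest control peak lay 9.16 Mb from the Wnt7b position, 6.16 Mb from Wnt8b, 2.02 Mb from Wnt7a and 0.958 Mb from Wnt5a.

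**Figure D1:**
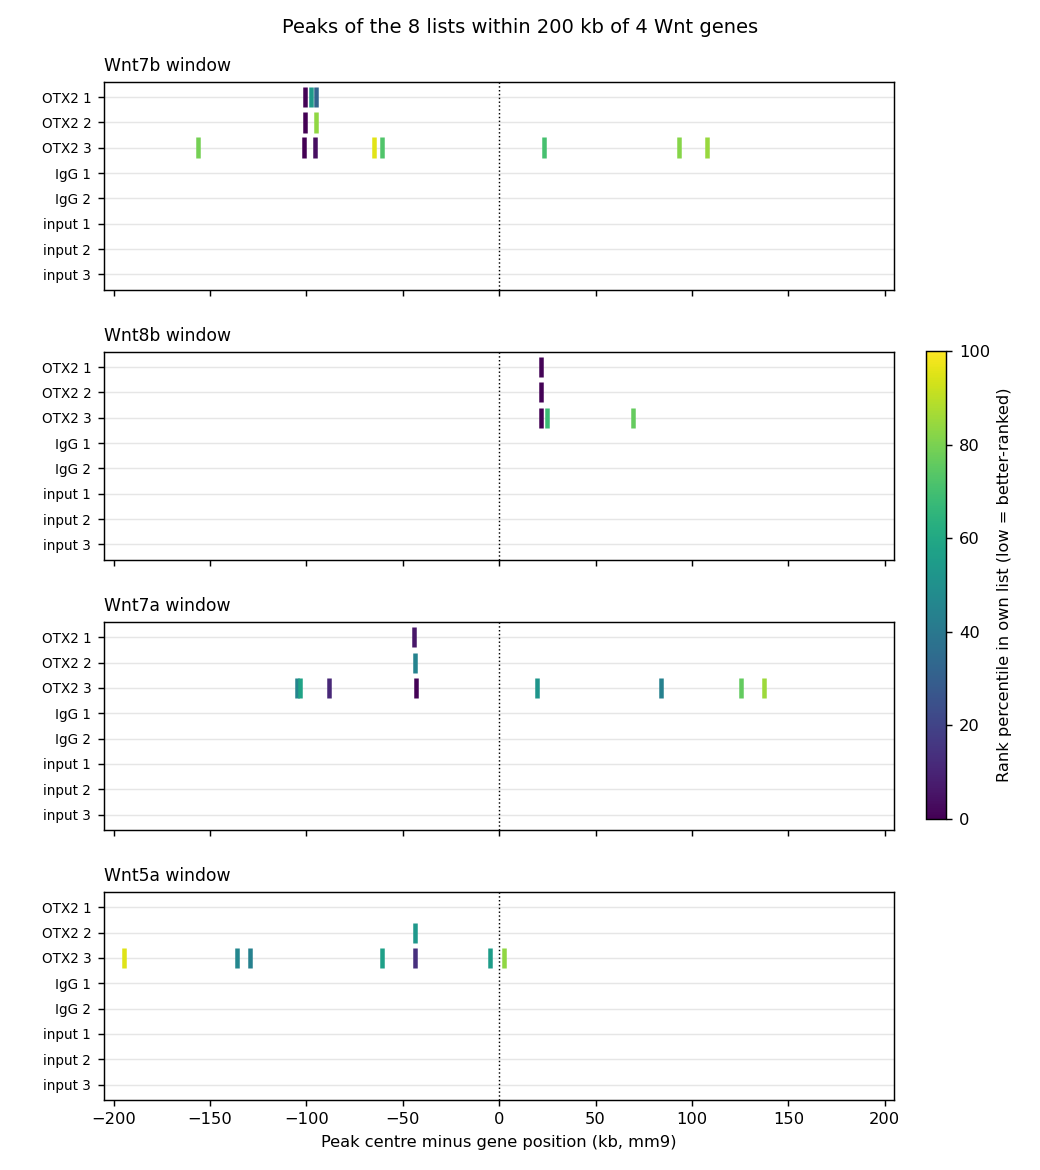
Peaks of the 8 lists in the 4 windows. The horizontal axis is the distance of the peak centre from the gene position in kb (mm9), each row is a library, each tick is a peak, and its colour is the rank as a percentage of the length of its own list. OTX2 rows hold all 36 peaks, the IgG and input rows are empty, and in each window the shared positions lie at 1 place (a pair of neighbouring places for Wnt7b).

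Peaks that overlapped by at least 1 bp were joined, and a joined interval was called an OTX2 region when 2 or more of the 3 OTX2 lists contributed to it and it met no control peak. The 36 peaks formed 27 intervals, of which 5 were regions: 2 at Wnt7b and 1 each at Wnt8b, Wnt7a and Wnt5a. In the whole series 1949 of 22629 intervals (8.61%) were regions. All 4 Wnt windows thus held at least 1 region, against 20.9% of the 6586 windows of the series, and the Wnt7b window was the one with 2, a number reached by 5.69% of windows. Since the genes were picked from these same peaks, the share of windows with a region says nothing about Wnt genes as a class. The same holds for the shares that follow. Of the 5 regions, 4 were found in all 3 OTX2 libraries, against 40.5% of the regions of the series. The exception was at Wnt5a, so that 3 of the 4 windows held a region of all 3 libraries, as did 9.63% of the windows of the series. Without replicate 3, the peaks of replicates 1 and 2 formed 6 intervals in the 4 windows, and 4 of them were regions, against 32.4% of such intervals in the series. The Wnt7b window then still held 2 regions, Wnt8b and Wnt7a 1 each and Wnt5a none, where 9.23% of all windows had at least 1 and 1.75% at least 2.

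At Wnt7b the best-ranked region spanned 85287739 to 85290080 on chromosome 15, with its centre 101.1 kb to the lower-coordinate side of the gene position. Its peaks were ranked 10, 5 and 15 in OTX2 replicates 1, 2 and 3. Expressed as a percentage of the length of each list, where a low value is a better rank, these were 0.541%, 0.385% and 0.0672%. By the mean of these 3 percentages it stood 5th of the 789 regions found in all 3 libraries. The peaks were 408, 462 and 2342 bp wide in replicates 1, 2 and 3, against list medians of 191, 182 and 827 bp. Over the best-ranked peaks of the 789 regions the medians were wider, at 270, 223 and 1585 bp. The stretch common to all 3 peaks was the whole replicate 1 peak, 85289056 to 85289463.

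A second Wnt7b region lay 5.55 kb from the first, centre to centre, at 85293171 to 85295753. Only 6.93% of the 1949 regions had another region with its centre within 10 kb. The second region was ranked far lower: 578, 1081 and 812 in OTX2 replicates 1, 2 and 3, or 31.3%, 83.3% and 3.64% of the lists, which placed it 641st of 789. In replicate 3 the neighbouring peaks were of similar width, 2583 bp here and 2342 bp in the first region, and 1.93% of all replicate 3 peaks were at least as wide as the second. In replicate 2 the second region was a peak of 144 bp, narrower than the list median of 182 bp. The stretch shared by all 3 libraries measured 127 bp, from 85294992 to 85295118.

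Between the 2 Wnt7b regions OTX2 replicate 1 had a peak of its own, 134 bp wide, at 85292090 to 85292223. It was ranked 990 and stood in the gap of 3090 bp between the replicate 3 peaks, 2009 bp from the first region and 947 bp from the second. This was the single peak of replicate 1 in the 4 windows that neither other OTX2 list overlapped. In replicates 1 and 2 every peak of the Wnt7b window therefore fell within a few kb of these regions. The remaining 6 Wnt7b peaks were in replicate 3 alone, between 156.3 kb on the lower side and 107.9 kb on the higher side of the gene position. Their ranks ran between 15743 and 21329 of 22325, all in the lower-ranked 50% of the list.

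The Wnt8b window had the fewest peaks and one of the best ranks. Its region spanned 44588777 to 44590344 on chromosome 19, centred 21.6 kb to the higher-coordinate side of the gene position. The peaks were ranked 19, 8 and 13 in OTX2 replicates 1, 2 and 3, which are 1.03%, 0.616% and 0.0582% of the lists. In replicate 3 this rank was ahead of that of the first Wnt7b region (13 against 15), and behind it in replicates 1 and 2. By mean percentage the Wnt8b region stood 11th of 789. Among the 4 genes Wnt8b was the one whose nearest peak in any OTX2 list belonged to a region.

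Of the 5 regions, that of Wnt8b had the closest peak positions. Their centres differed by at most 39 bp over the 3 libraries, against a median of 167.5 bp over the 789 regions (interquartile range 78 to 324 bp). The peaks were 790, 602 and 1568 bp wide in replicates 1, 2 and 3, so that the replicate 3 peak was 1.98 times as wide as that of replicate 1, where the median ratio over the 789 regions was 5.85. All 3 peaks shared 602 bp, from 44589289 to 44589890, against a median of 181 bp over the 747 regions whose best-ranked peaks had a common stretch. The other Wnt8b peaks were in replicate 3 alone. One, ranked 15240, was centred 25.05 kb and the other, ranked 17013, 69.2 kb to the higher side of the gene position.

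**Figure D2:**
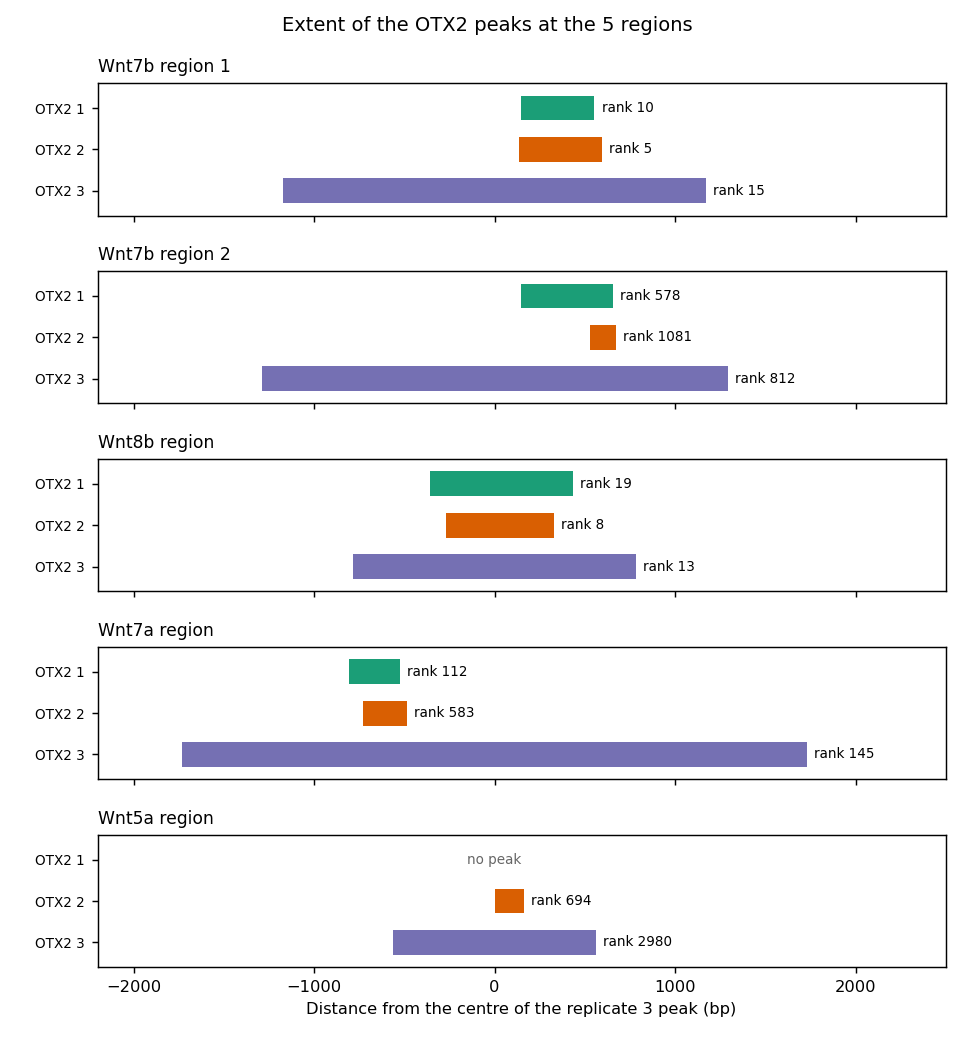
Extent of the best-ranked OTX2 peak of each library at the 5 regions, in bp from the centre of the replicate 3 peak, with the rank of the peak in its list. Peaks of replicates 1 and 2 lie inside the wider replicate 3 peak at all 5 regions. They are nearly centred at Wnt8b and lie off-centre at both Wnt7b regions and at Wnt7a.

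At Wnt7a one region, at 91294979 to 91298441 on chromosome 6, was centred 43.3 kb to the lower side of the gene position. The libraries differed in where they ranked it: 112 in OTX2 replicate 1, 583 in replicate 2 and 145 in replicate 3, or 6.06%, 44.9% and 0.649% of the lists. The gap of 38.9 percentage points between replicates 1 and 2 was reached by 10.1% of the 794 regions that both of these libraries held, whose median gap was 12.3 points. The second Wnt7b region had a gap of 52.0 points in the same direction, with the worse rank in replicate 2. At the first Wnt7b region and at Wnt8b the gaps were 0.156 and 0.412 points, with the slightly better rank in replicate 2. By mean percentage the Wnt7a region stood 292nd of 789.

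The replicate 3 peak at Wnt7a was the widest of the 26 replicate 3 peaks in the windows, with 3463 bp, and 0.690% of the replicate 3 list was as wide or wider. The median replicate 3 width was 827 bp over that list and 1585 bp over the best-ranked peaks of the 789 regions. The peaks of replicates 1 and 2 measured 280 and 245 bp. Both lay toward the lower end of the wide peak, with centres 664.5 and 609 bp from its centre, and overlapped each other over 207 bp, from 91295979 to 91296185. The other 7 Wnt7a peaks were in replicate 3 alone. One of them, at 91251410 to 91252510 and centred 88.0 kb to the lower side, was ranked 2472, or 11.1% of the list, the best place by percentage of list length among the window peaks that only 1 library held (the replicate 1 peak between the Wnt7b regions, ranked 990, stood at 53.6% of its shorter list). The nearest to the gene position was ranked 11657 and centred 19.8 kb to its higher side.

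The Wnt5a region was the least supported of the 5. It spanned 29280675 to 29281799 on chromosome 14, centred 43.8 kb to the lower side of the gene position. Its peaks were ranked 694 in OTX2 replicate 2 and 2980 in replicate 3, or 53.5% and 13.3% of the lists, and replicate 1 had no peak in the whole window. The replicate 2 peak was 158 bp wide, below its list median of 182 bp, and lay inside a replicate 3 peak of 1125 bp. Without replicate 2 or without replicate 3 the Wnt5a window held no region. When replicate 3 was left out, the other windows kept their counts of 2, 1 and 1 regions (Wnt7b, Wnt8b and Wnt7a).

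Closer to the Wnt5a position, replicate 3 alone had a pair of peaks. One was centred 4.66 kb to the lower side, 1565 bp wide and ranked 12383, and the other 2.56 kb to the higher side, 725 bp wide and ranked 18660. These were the OTX2 peaks nearest to any of the 4 gene positions. Together with 4 others of the window (ranks 9709 to 21198) they were absent from replicates 1 and 2.

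**Figure D3:**
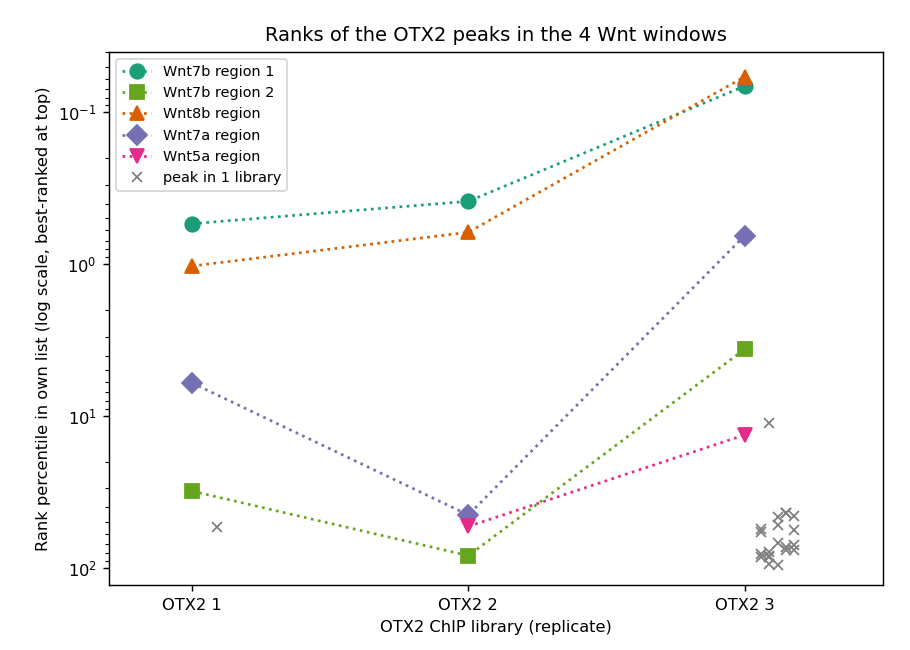
Rank of every OTX2 peak of the 4 windows as a percentage of the length of its own list, on a log scale with the best ranks at the top. Dotted lines join the peaks of 1 region and grey crosses are peaks found in 1 library. The first Wnt7b region and the Wnt8b region are at or near 1% of the list or better in all 3 libraries, while the other 3 regions lie between 44.9% and 83.3% in replicate 2.

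Over the 4 windows, replicate 3 overlapped most peaks of OTX2 replicates 1 and 2, and most of its own peaks were not shared. The same held over the full lists, although there replicate 2 overlapped a minority of replicate 1 peaks. Replicate 2 overlapped 4 of the 5 window peaks of replicate 1 (43.0% over the full list) and replicate 3 overlapped the same number (87.9%). Replicate 1 overlapped 4 of the 5 window peaks of replicate 2 (61.6%), and replicate 3 overlapped all 5 (92.1%). Of the 26 window peaks of replicate 3, replicate 1 overlapped 4 (7.19% over the full list), replicate 2 overlapped 5 (5.25%) and either of them 5 (8.83%). With 5 window peaks in each of the shorter lists, no difference from the full lists is read from these counts. When all peaks were trimmed to the central 200 bp, 1 of the 5 replicate 1 peaks and 2 of the 5 replicate 2 peaks still met one of replicate 3. Over the full lists this trimming left 59.8% of replicate 1 peaks and 60.9% of replicate 2 peaks. Because only the middle of a peak is kept, a narrow peak off-centre in a wide replicate 3 peak then counts as not shared. At both Wnt7b regions and Wnt7a, such centres lay 350 to 664.5 bp from the replicate 3 centre. Replicate 2 still met 3 of the 5 replicate 1 peaks after trimming (40.7% over the full list).

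Sharing within the windows followed the rank of the replicate 3 peaks. All 4 window peaks in the best-ranked 10% of that list (ranks 1 to 2232) were shared, where 64.6% of all peaks at those ranks were. In the next 10% (ranks 2233 to 4465, with 13.7% of the list's peaks shared) there were 2 window peaks: the one in the Wnt5a region, ranked 2980, was shared, and the Wnt7a peak ranked 2472 was not. None of the remaining 20 window peaks was shared, and over the list 1.25% of the 17860 peaks at those ranks were. The 21 replicate 3 peaks held by that library alone had a median rank of 15743, and 16 of them stood in the lower-ranked 50% of the list. Over the 20354 replicate 3 peaks of the series that neither other OTX2 list overlapped, the median rank was 12118.5 and 54.7% stood there. The 21 window peaks were 472 to 1565 bp wide with a median of 725 bp, against 800 bp for those 20354.

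By number of replicate 3 peaks, the windows were moderately dense. With 8 peaks each, Wnt7b and Wnt7a stood at a number that 12.2% of the 6586 windows reached or passed, and 16.3% reached the 7 peaks of Wnt5a. The Wnt8b window with 3 peaks was near the middle, since 49.6% of windows had at least that many. In the shorter lists, 1.62% of windows reached the 3 replicate 1 peaks of Wnt7b and 3.04% its 2 replicate 2 peaks. Wnt8b and Wnt7a had 1 peak in each, a number reached by 19.7% of windows in replicate 1 and 14.5% in replicate 2. Wnt5a had 0 peaks in replicate 1 and 1 in replicate 2. The windows were chosen with these peaks known. The number of replicate 3 peaks and the rank of the best region did not give the genes in 1 order: Wnt7b had 8 peaks and the best-ranked region, Wnt8b had 3 peaks and the next best, and Wnt7a and Wnt5a had 8 and 7 peaks and lower-ranked regions.

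**Figure D4:**
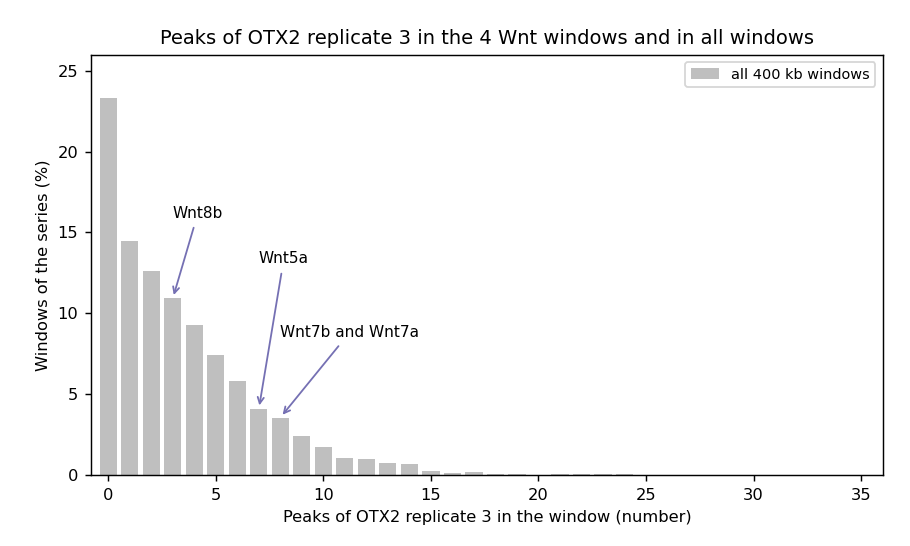
Number of OTX2 replicate 3 peaks in the 4 Wnt windows (arrows) and in all 6586 windows of 400 kb in the series (bars, percentage of windows). Wnt8b, with 3 peaks, is near the middle of the distribution, and Wnt5a with 7 and Wnt7b and Wnt7a with 8 lie in its upper part.

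The 200 kb limit did not pass through a group of peaks. The outermost OTX2 peak inside the limit was 156.3 kb from the gene position at Wnt7b, 69.2 kb at Wnt8b, 137.5 kb at Wnt7a and 194.8 kb at Wnt5a, and the first outside it was 300.2 kb, 208.6 kb, 243.2 kb and 285.7 kb away at the same genes. All 8 of these were peaks of replicate 3, ranked 17013 to 21198 inside the limit and 12287 to 19497 outside it. The next OTX2 region beyond the limit was 434.5 kb from Wnt7b, 581.1 kb from Wnt8b, 614.5 kb from Wnt7a and 346.9 kb from Wnt5a. Measured between centres, the region closest to that of Wnt8b lay 559.5 kb away, to that of Wnt7a 657.8 kb and to that of Wnt5a 303.1 kb, whereas the Wnt7b pair was 5.55 kb apart.

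Peaks were not assigned to exons, introns or promoters, because the gene table used here describes GRCm38 and the peaks are in mm9. A distance here is to the stated gene position, which is not necessarily a transcription start site, and other genes share each window. In the order of protein-coding genes along the GRCm38 chromosomes, Wnt7b (gene ID 22422) lies between 7530416G11Rik and Ppara, a fatty acid-sensing nuclear receptor. Wnt8b (22423) lies between Scd1, a stearoyl-CoA desaturase, and Sec31b, a component of the vesicle coat of the secretory pathway. Wnt7a (22421) lies between Fbln2, an extracellular matrix protein, and Chchd4, a mitochondrial import factor. Wnt5a (22418) lies between Erc2, a presynaptic scaffold protein, and Cacna2d3, a calcium channel subunit. These are the neighbours of each Wnt gene, not of the regions, and other genes may lie nearer to a region. Which gene, if any, a region acts on was not tested.

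The RefSeq promoter table (GRCm38.p6, 250 bases before to 50 after a gene's start) had entries for 2 of the 4 genes, Wnt7a and Wnt8b. Neither window contained TAATCC on either strand, and 7.06% of all 32851 promoter windows did. The letters under the OTX2 peaks themselves were not read, since no mm9 sequence was used here.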

How the data were processed

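ChIP-seq peak lists of 3 OTX2, 3 input and 2 IgG libraries were used as deposited, 1 list per library. A line holds the coordinates of a peak and its rank within the list. The deposited lists carry ranks without heights, p-values or read totals, and reads were not analysed here, so depth and its precision are unknown. BWA, MACS 1.4 and mm9 are named in the submitters' processing notes. The sources used here do not state the control, the threshold or the basis of the rank. The score tag in the replicate 3 track names is not explained, so whether it bears on the threshold or the rank is unknown. Starts were written 1-based. Groups and replicates came from the sample titles.

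Intervals were joined in Python 3.11.15 by code tested on simulated data, and 1 overlap was checked with bedtools 2.31.1 (1625 peaks by both). Windows of the series were full 400 kb steps from the start of each chromosome to the last peak of any list, mitochondrial DNA left out. They include stretches without mappable sequence and are not centred on genes. The genes and every list were chosen with earlier results of these data known. All regions were named one by one. Other peaks were given singly where best-ranked, nearest to a gene position or next to the 200 kb limit. Exceptions are the Wnt5a peak ranked 12383 and the replicate 1 peak between the Wnt7b regions. That replicate 1 peak was chosen after its values were seen. Other Wnt pathway genes listed for this work have no mm9 positions here and were not analysed.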

Additional observations from a re-analysis of the deposited data

How the results depend on the processing

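Of 118 recomputed values, 86 stayed within 1.5 times the reported one and 32 did not. Counting intervals of any 1 OTX2 library gave 9, 3, 8 and 7 for Wnt7b, Wnt8b, Wnt7a and Wnt5a. The Wnt5a region count fell to 0 when all 3 libraries were required, with the better-ranked 50% of each list, and with lists cut to the shortest length. Leaving out 1 replicate gave 0 to 1 regions at Wnt5a and no change at Wnt7b, Wnt8b and Wnt7a. This restates which libraries hold each region, all 3 at those genes and replicates 2 and 3 at Wnt5a. The overlap of 50% of the shorter peak could not change a region count. At all 5 regions the peaks of replicates 1 and 2, where present, lie inside the replicate 3 peak. Both treatments of control peaks could not change a region count either, since no control peak lay in any of the windows. The values of these settings are nevertheless among the 86. A 100 kb limit left 1 region at Wnt7b, the lower-ranked one, since the best-ranked region is centred 101.1 kb from the gene position, and a 500 kb limit gave 5 at Wnt5a. At 100 kb, replicate 3 had 5 peaks at Wnt7b, 4 at Wnt7a and 4 at Wnt5a, and replicate 2 had 1 at Wnt7b. At 500 kb, replicate 3 had 16 at Wnt7b, 10 at Wnt8b and 15 at Wnt5a, replicate 1 had 2 at Wnt7a and 4 at Wnt5a, and replicate 2 had 2 at Wnt5a. In the better-ranked 50% of the lists, replicate 3 kept 2, 1, 4 and 3 peaks at Wnt7b, Wnt8b, Wnt7a and Wnt5a, and replicate 2 kept 1 at Wnt7b and 0 at Wnt5a. With peaks cut to 200 bp, 1 replicate 1 peak and 2 replicate 2 peaks lay in replicate 3, and of the replicate 3 peaks 1 lay in replicate 1, 2 in replicate 2 and 2 in either. Over the full lists the same trimming left 59.8%, 60.9%, 4.95%, 3.54% and 6.39%. The cause of these changes was not tested beyond the smaller or larger lists and windows themselves. Ordering the 789 regions by their worst percentage, or without replicate 3, were alternatives chosen after seeing the data. They placed Wnt7b region 1 5th and 5th, Wnt8b 10th and 11th, Wnt7a 425th and 299th, and Wnt7b region 2 736th and 647th. No paired analysis was possible because no result comes from a test. Unknown depth limits every absence: a window without a peak in a list is not shown to be unbound.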
